A study of Mus musculus with 3 samples.

Results

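The FOXO group described here holds 10 genes of the 18193 named on the array: the forkhead factors Foxo1, Foxo3 and Foxo4, the insulin receptor substrates Irs1 and Irs2, the PI3K inhibitor Pik3ip1, and Ccng2, Cited2, Bcl6 and Klhl24, which are known as FOXO targets or as genes of quiescent cells. They were taken as all probe sets whose annotation gives 1 of these genes as the only symbol, which gave 24 of the 45037 probe sets. An additional probe set that names Foxo3 together with another gene was left out. The genes were chosen with results of these arrays known, so every value below that rests on the chosen contrast is a description and supports nothing by itself.

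The cells were 4T1, a mouse mammary carcinoma line grown in RPMI-1640 with serum, and total RNA was hybridised to Affymetrix Mouse Genome 430 2.0 arrays. The first array held cells kept in regular medium, for a time that the labels do not state. The second held cells given medium conditioned by MSCs (MSC-CM in the labels; MSC usually stands for mesenchymal stem or stromal cell) for 1 week. The third held cells that were kept in contact with MSCs for 1 week and then isolated from them, by a method the labels do not give. There was 1 array per condition and hence no replicate error, no test and no p-value. Where a difference is given, it compares 2 arrays.

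FOXO factors are forkhead transcription factors that carry the output of insulin and growth factor signalling. When the receptor is active, IRS adaptors recruit PI3K, the kinase AKT is switched on, and AKT phosphorylates FOXO proteins, which then leave the nucleus. When the pathway is quiet, FOXO proteins stay in the nucleus and switch on genes for cell cycle arrest, stress defence and, in a feedback loop, receptors and IRS adaptors of the same pathway. This control acts mainly on the proteins, and an array measures the RNA only.

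The promoters of Irs1 and Irs2, which were brighter in co-culture, and of Ccng2 and Cited2, which were dimmer there, are shown to set these groups of opposite direction side by side. Each sequence is the 250 bases before the RefSeq gene start, on the gene's own strand from 5′ to 3′, with coordinates in GRCm38.p6, and none of it is transcribed from that start. Capitals mark the 5-letter core of the FOXO element, AAACA, or its reverse complement TGTTT.
Irs1 (chr1:82291440-82291689, minus strand): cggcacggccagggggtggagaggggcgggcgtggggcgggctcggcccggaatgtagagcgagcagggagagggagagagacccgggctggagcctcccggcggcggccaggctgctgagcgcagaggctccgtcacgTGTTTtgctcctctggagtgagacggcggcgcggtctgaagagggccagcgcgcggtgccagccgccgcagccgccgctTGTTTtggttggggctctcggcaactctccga
Irs2 (chr8:11008930-11009179, minus strand): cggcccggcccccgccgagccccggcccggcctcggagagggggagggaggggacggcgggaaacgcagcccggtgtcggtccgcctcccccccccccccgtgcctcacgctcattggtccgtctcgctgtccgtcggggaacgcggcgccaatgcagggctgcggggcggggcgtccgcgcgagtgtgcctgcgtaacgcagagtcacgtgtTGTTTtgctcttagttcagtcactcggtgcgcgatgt
Ccng2 (chr5:93267323-93267572, plus strand): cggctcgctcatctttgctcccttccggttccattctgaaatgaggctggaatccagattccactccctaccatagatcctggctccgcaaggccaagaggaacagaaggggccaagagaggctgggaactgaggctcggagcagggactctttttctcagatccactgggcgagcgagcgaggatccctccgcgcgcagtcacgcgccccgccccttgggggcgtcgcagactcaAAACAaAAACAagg
Cited2 (chr10:17722978-17723227, plus strand): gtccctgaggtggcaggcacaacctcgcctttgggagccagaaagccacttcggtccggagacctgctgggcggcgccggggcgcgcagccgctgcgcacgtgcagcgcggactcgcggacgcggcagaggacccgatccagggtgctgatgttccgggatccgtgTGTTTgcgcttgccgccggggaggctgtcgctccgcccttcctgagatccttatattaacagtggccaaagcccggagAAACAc

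The promoter table matched 8 of the 10 genes, all but Foxo4 and Klhl24, with 9 windows of 300 bases (250 before and 50 after the start), since Bcl6 has 2. Irs1 held the core 111 and 32 bases before the start, and Irs2 held it 37 bases before. Ccng2 held it 14 and 8 bases before the start, separated by a single base, and Cited2 held it 84 and 6 bases before. In Foxo1 it lay 196 bases before the start, while in Pik3ip1 and in the second Bcl6 window it lay 22 and 24 bases after it. Thus 7 of the 9 windows held AAACA on either strand, beside 50.5% of all 32851 promoters, and Foxo3 and the first Bcl6 window did not. The longer element GTAAACA, searched on both strands, was in 0 of the 9 windows and in 3.65% of all promoters. The share of G or C ran from 51.7% in the second Bcl6 window to 72.0% in Irs2 and more in Foxo3, against a median of 52.7% over all promoters. These are matches of letters in short windows and say nothing about binding.

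In co-culture, the IRS adaptors, Foxo1, Foxo3 and Bcl6 had signals above those in regular medium, and Ccng2 and Cited2 had signals below. Of the 9 genes bright enough to compare, 6 lay above 0 and 3 below, while 56.0% of all 9393 genes compared lay above 0. The log2 differences of the 9 ran from -1.33 to 1.07, with a median of 0.83, against 0.07 over all genes compared. A gene counted as measured when its signal reached 149.3 (the 60th percentile of the signals of all 3 arrays together) on at least 1 of the 2 arrays, and as called when its signals also differed at least 2-fold. By that rule Foxo3 and Irs2 were higher and Ccng2 was lower, 3 of 9 measured genes, beside 8.57% of all genes called either way. In the higher direction this was 2 of 9 beside 5.81%, and in the lower direction 1 of 9 beside 2.76%. Since these genes were picked with this contrast in view, nothing is read from those shares. A gene with several probe sets was represented by the brightest on average.

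Some facts of the arrays stand beside every co-culture value. The summed signal of 13 MSC and fibroblast markers was 7258.7 in co-culture, against 4215.3 in regular and 4563.8 in conditioned medium. All 6 measured markers lay above 0 in co-culture against regular medium, beside 56.0% of all genes. Their median log2 difference was 0.89, or 0.05 when the dim markers were counted too. Most of the summed signal came from Nt5e, Eng and Postn, which were already bright in regular medium. Col1a1, Dcn, Thy1, Pdgfrb and Mgp lay at or below the floor of 42.4 on all 3 arrays. Of the 6 measured markers, Bgn and Postn were called higher in co-culture than in regular medium, beside 5.81% of all genes. Bgn had signals of 12.3, 57.8 and 181.5 in regular medium, conditioned medium and co-culture, 4.28-fold higher counted from the floor. Postn was 2.35-fold higher, and Col1a2 and Pdgfra were 1.85-fold higher each, under the 2-fold rule. Whether RNA from MSCs had a part in the values of the FOXO group was not tested. Isolation, which only the co-culture cells went through, cannot be told apart from contact. In bulk RNA, fewer cells with a transcript and less of it per cell cannot be told apart either.

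Epithelial RNA on all arrays was checked with Krt8, Krt18, Epcam and Cdh1, epithelial keratins and adhesion proteins. Their signals lay between 5009.0 and 21097.3 on every array. These genes are not particular to 4T1. The remaining marker of that list, the basal keratin Krt14, had signals of 1217.5, 1263.4 and 439.1 in regular medium, conditioned medium and co-culture. It was 2.77-fold lower in co-culture than in regular medium. Of the 5 macrophage and leukocyte markers, Ptprc and Itgam were at or below the floor on all arrays and Adgre1 was not measured. The macrophage genes Csf1r and Cd68 were measured, with signals of 186.9, 181.4 and 134.2 for Csf1r and 200.9, 282.3 and 273.4 for Cd68 in the same order, log2 differences of -0.48 and 0.44 in co-culture. None of the 3 endothelial markers was measured.

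**Figure D1:**
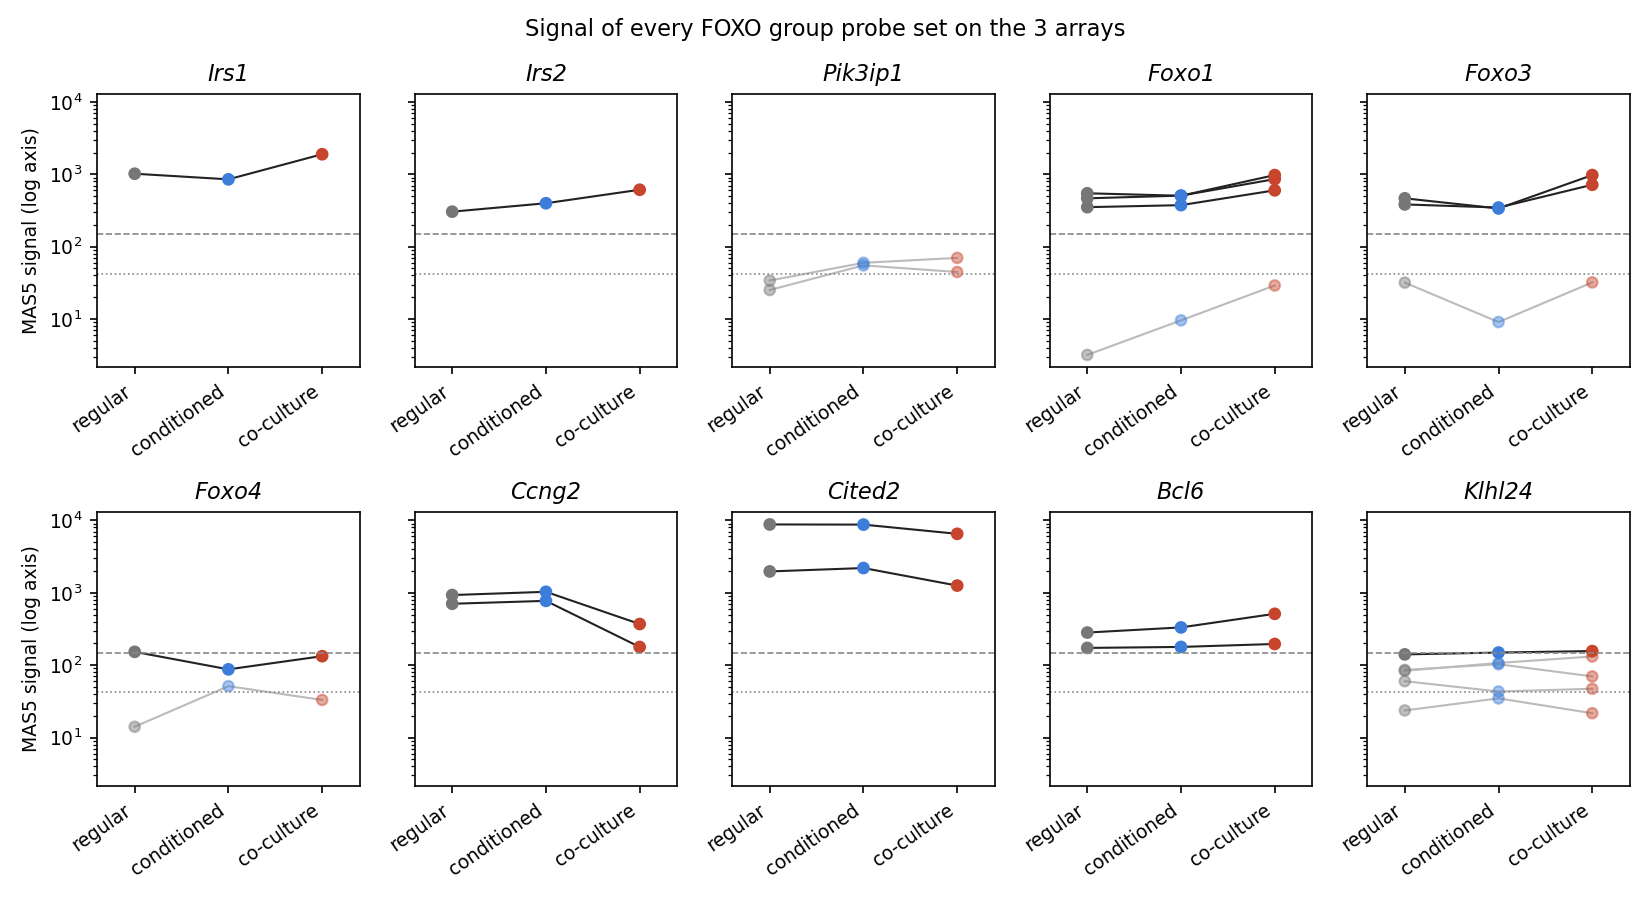
MAS5 signal (log axis) of each of the 24 probe sets of the FOXO group on the 3 arrays, 1 panel per gene and 1 line per probe set; pale lines are probe sets that reached 149.3 (dashed line) on no array, and the dotted line is the floor of 42.4. Irs1, Irs2, Foxo1, Foxo3 and Bcl6 have their highest point in co-culture, and both lines of Ccng2 and of Cited2 have their lowest point there.

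Irs1 and Irs2 encode the adaptors that link the insulin and IGF1 receptors to PI3K. The Irs1 probe set (1423104_at) had a signal of 1892.3 in co-culture, against 1018.4 in regular and 852.0 in conditioned medium. Co-culture was thus the brightest of the 3 arrays and conditioned medium the dimmest. The co-culture signal was 1.86-fold that of regular medium (log2 difference 0.89) and 2.22-fold that of conditioned medium (1.15), so that Irs1 was called against conditioned medium only. With the arrays scaled to a common median the log2 difference from regular medium was 1.03, which would pass the 2-fold rule. That scaling raised all genes alike, with their median going from 0.07 to 0.21.

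Irs2 (1443969_at) had signals of 304.6 in regular medium, 398.2 with conditioned medium and 611.9 in co-culture. The conditioned-medium array lay between the others, which differs from Irs1. Irs2 was 2.01-fold higher in co-culture than in regular medium (log2 difference 1.01), with 1.54-fold between co-culture and conditioned medium. This call lay at the edge of the rule, since quantile normalization gave 0.98 and a pseudocount of 16 in place of the floor gave 0.97. With the signal filter at the 80th percentile Irs2 was too dim to be called. Each adaptor has a single probe set here, so no second reading of either transcript was at hand.

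Pik3ip1 encodes a membrane protein that restrains PI3K. Its brighter probe set (1428332_at) had signals of 34.1, 59.9 and 70.0 in regular medium, conditioned medium and co-culture, and the other (1439087_a_at) had 25.2, 55.2 and 44.7. No array reached 149.3 for either, and both probe sets were under the floor in regular medium. Pik3ip1 is therefore the only 1 of the 10 genes that was not measured, and no difference is given for it.

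Foxo1 is the family member best known from insulin-responsive tissues. The probe set standing for it (1416983_s_at) had signals of 546.7 in regular medium, 505.3 with conditioned medium and 975.2 in co-culture, 1.78-fold above regular medium. The 2 other measured probe sets gave 465.8, 507.5 and 857.8 (1416981_at) and 351.5, 374.7 and 600.5 (1416982_at). All 3 were brightest in co-culture, with log2 differences from regular medium between 0.77 and 0.88 (mean 0.83 ± 0.05, SD over 3 probe sets). That SD describes agreement between probe sets on the same arrays and holds no variation between cultures. Every measured Foxo1 probe set stayed under the 2-fold rule. The remaining probe set (1456529_at) lay below the floor on all arrays.

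Foxo3, a factor linked to arrest and cell death when growth factors are withdrawn, had signals of 465.7, 337.4 and 975.4 with the probe set standing for it (1434831_a_at). It was 2.09-fold higher in co-culture than in regular medium and 2.89-fold higher than in conditioned medium. The second measured probe set (1434832_at) gave 383.5, 347.3 and 717.1, which is 1.87-fold above regular medium. Co-culture was the brightest array and conditioned medium the dimmest for both. The call against regular medium rested on the first probe set. The second, used when probe sets with the suffixes _x_at, _s_at and _a_at were left out, had a log2 difference of 0.90. The mean over the 2 measured probe sets was 0.98. The remaining probe set (1450236_at) was below the floor throughout, which fixed its difference at 0.0. The mean over all 3 probe sets, 0.66, was lowered by that.

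Foxo4, the family member encoded on the X chromosome, was dim. Its brighter probe set (1456753_at) had signals of 152.9 in regular medium, 87.6 with conditioned medium and 133.2 in co-culture, so that only regular medium reached 149.3, and by a small margin. The log2 difference was -0.20 in co-culture and -0.80 in conditioned medium, a 1.75-fold lower signal. With the floor raised to the 60th percentile the latter became -0.03. The second probe set (1422149_at) read 14.1, 51.3 and 33.1, dim on every array.

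Among the targets, Ccng2 had the largest difference of the 9 measured genes in co-culture against regular medium. It encodes cyclin G2, an unusual cyclin that is abundant in resting cells and slows the cell cycle. The probe set standing for it (1416488_at) had signals of 930.9 in regular medium, 1031.8 with conditioned medium and 370.3 in co-culture, and the other (1448364_at) had 705.4, 773.8 and 178.4. In both, the media arrays lay close together and co-culture far below them. Ccng2 was 2.51-fold lower in co-culture than in regular medium by the first probe set and 3.95-fold lower by the second, and 2.79-fold lower than in conditioned medium by the first. Of the 9393 genes compared with regular medium, 105, Ccng2 included, had a difference this low or lower. The direction was thus opposite to that of Foxo1 and Foxo3 on the same array.

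Cited2, a coregulator that competes with HIF1A for CBP and p300, had signals of 8793.3, 8747.9 and 6528.0 with its brighter probe set (1452207_at) and 1973.0, 2198.0 and 1257.5 with the other (1421267_a_at). Both were dimmest in co-culture. The log2 differences from regular medium were -0.43 and -0.65, and neither passed the rule. In size these were beyond the lower quartile of all genes compared, which was -0.26.

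Bcl6 encodes a zinc finger repressor that is switched on by FOXO factors in lymphocytes. The probe set standing for it (1421818_at) had signals of 282.5, 332.5 and 512.4, 1.81-fold above regular medium in co-culture. The other (1450381_a_at) had 173.2, 178.7 and 196.3, only 1.13-fold above. Both had the order regular medium, conditioned medium, co-culture, but their log2 differences of 0.86 and 0.18 were unlike in size.

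Klhl24, a Kelch-family adaptor of a ubiquitin ligase, was dim. The only measured probe set of its 5 (1429351_at) had signals of 141.0, 149.4 and 156.8, a log2 difference of 0.15. The others ranged from 21.7 to 131.8 over all arrays and did not share a direction. No difference in Klhl24 can be read from these arrays.

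**Figure D2:**
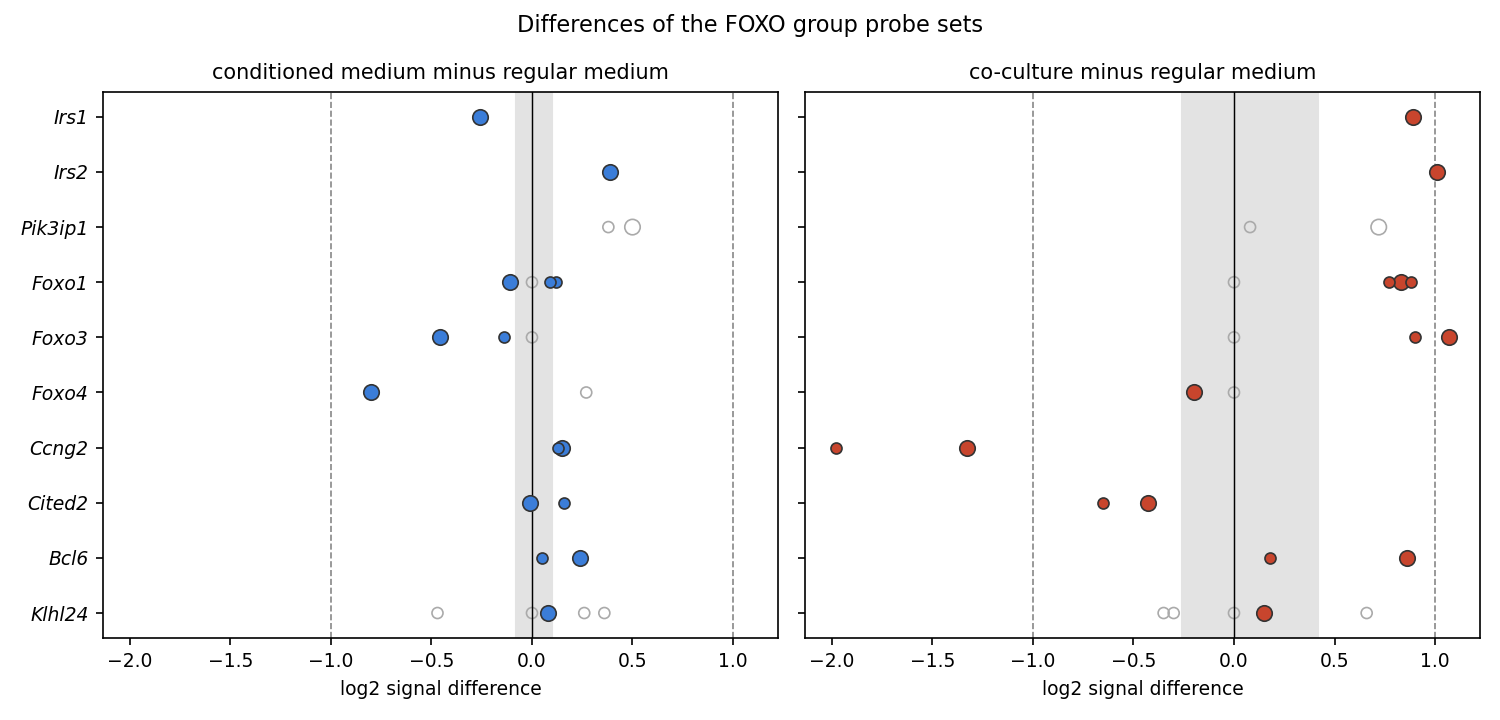
Log2 signal difference from regular medium for conditioned medium (left) and co-culture (right), 1 point per probe set; large points stand for the gene, open points are not measured, grey bands hold the middle 50% of all genes compared, and dashed lines mark 2-fold. On the right the measured Foxo1, Foxo3, Irs1 and Irs2 points lie between 0.77 and 1.07 and the Ccng2 points at -1.33 and -1.98.

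The only gauge of scatter at hand is the gap between probe sets of a gene. Such probe sets are read on the same arrays, so the gap holds no error between arrays or cultures. Over 4477 genes with at least 2 measured probe sets, the brightest pair differed by a median of 0.31 in the log2 difference between co-culture and regular medium, and 5% of the pairs by more than 1.21. All 5 genes of the group with several measured probe sets (Foxo1, Foxo3, Ccng2, Cited2 and Bcl6) had those probe sets on 1 side of 0. How many of all genes did so was not counted, and nothing is read from this. The probe sets of Foxo1 and Foxo3 lay closer together than the typical pair, and those of Ccng2 and Bcl6 lay farther apart than it. Counted at 1.5-fold, 5 of 9 measured genes were higher in co-culture (Bcl6, Foxo1, Foxo3, Irs1 and Irs2), beside 16.9% of all genes, and 1 was lower, beside 9.86%. These shares too describe genes chosen on this contrast.

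The conditioned-medium array addresses exposure to what MSCs secrete, without contact. None of the 9 measured genes of the FOXO group was called, beside 0.415% of all genes, and their median log2 difference was -0.01, against 0.01 over all 9152 genes compared. The differences ran from -0.80 for the dim Foxo4 to 0.39 for Irs2. Irs1 lay at -0.26 and Foxo3 at -0.46 and -0.14 by its measured probe sets, the other side of 0 from co-culture. Foxo1 lay between -0.11 and 0.12 and Ccng2 at 0.13 and 0.15. In this comparison the brightest pairs of probe sets of a gene differed by a median of 0.14, and 5% of the pairs by more than 0.60. Foxo4 alone passed 1.5-fold, in the lower direction, beside 1.46% of all genes.

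**Figure D3:**
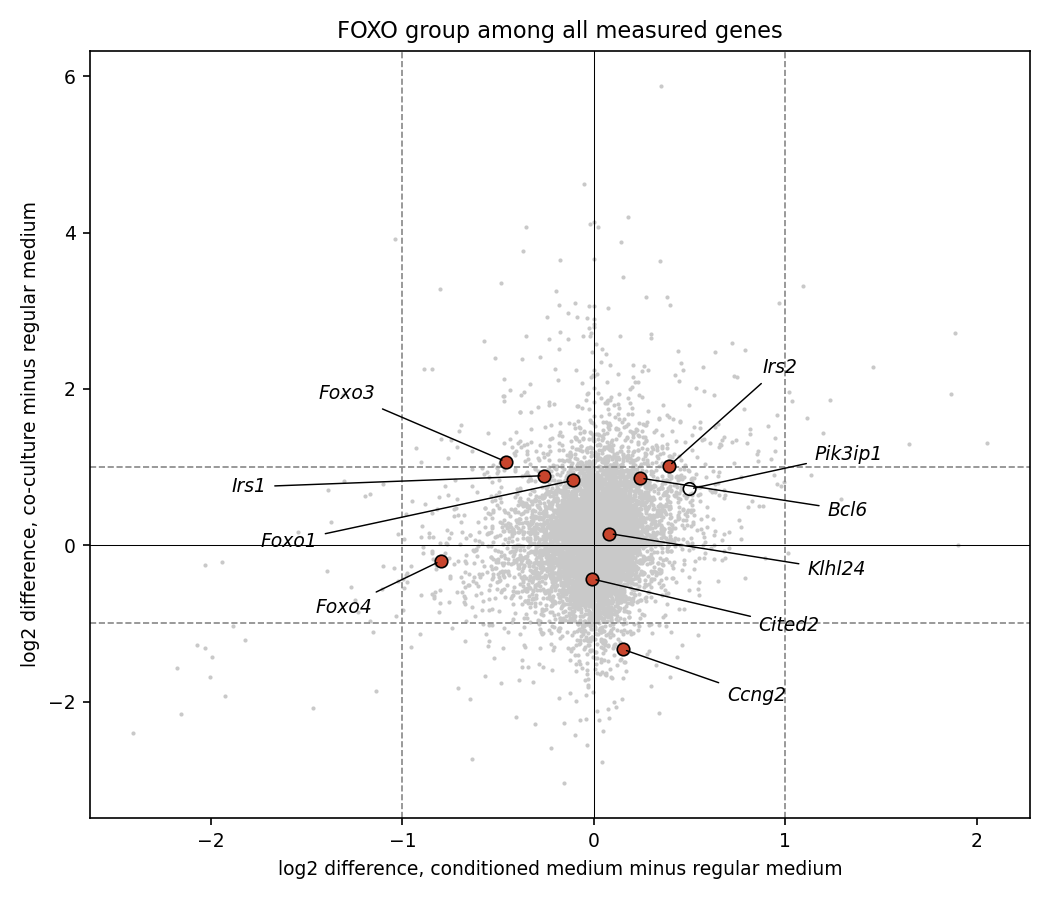
Log2 difference of each gene measured on at least 1 array (9452 grey points) and of the FOXO group (red; Pik3ip1, not measured, open), with conditioned medium minus regular medium on the x axis and co-culture minus regular medium on the y axis; dashed lines mark 2-fold. The group spreads along the y axis from Ccng2 at -1.33 to Foxo3 at 1.07, and no point passes 2-fold on the x axis.

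Co-culture was also set against conditioned medium, which shares the co-culture array with the first comparison, so the values are given side by side and not as a second line of evidence. Of 8 measured genes, Foxo3 and Irs1 were higher and Ccng2 lower, beside 8.43% of all genes called either way, 5.83% higher and 2.6% lower. The median of the 8 was 0.62. Foxo1 had log2 differences of 0.68 to 0.95 by its 3 measured probe sets, and both measured Foxo3 probe sets passed the rule at 1.05 and 1.53. Irs2 and Bcl6 each stood at 0.62, and the Ccng2 probe sets at -1.48 and -2.12.

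Over all genes, co-culture against regular medium gave 546 higher and 259 lower, and conditioned against regular medium 10 and 28. Scaling the arrays to a common median moved the median of all genes from 0.07 to 0.21 and from 0.01 to 0.17, and the counts became 801 and 167, and 25 and 18. Quantile normalization gave 15 and 25 in the latter comparison.

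The wider pathway was described with lists that were written with earlier results of these arrays known. Of 23 genes of PI3K and AKT signalling above FOXO, 20 were measured in co-culture against regular medium. None was called higher, beside 5.81% of all genes, and 1 lower, beside 2.76%. The median log2 difference was 0.27, beside 0.07 over all genes. The gene called lower was Inpp4b, a lipid phosphatase that restrains PI3K signalling, with signals of 274.9 in regular medium, 362.7 with conditioned medium and 85.8 in co-culture, a 3.2-fold lower signal. This call was lost with the floor at the 60th percentile and with the signal filter at the 80th. Pik3r1, the regulatory subunit p85alpha, had 358.0, 420.0 and 649.3, a difference of 0.86, but its 3 other measured probe sets ran from -0.71 to 0.15. Tsc1 and Tsc2, which together restrain mTORC1, had differences of 0.81 and 0.75.

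None of 20 measured FOXO modifiers and partners was called in either direction, beside 8.57% of all genes, and their median was -0.02. Skp2, a ubiquitin ligase subunit that marks FOXO1 and CDKN1B for destruction, had signals of 3228.7, 3414.6 and 1732.5, a difference of -0.90 that its 5 other measured probe sets placed between -1.58 and -0.63. Sfn, the 14-3-3 sigma protein, had a difference of -0.77 and the co-activator Ep300 had 0.50. Ywhag, another 14-3-3 protein, had 0.64, with other probe sets from -0.99 to 0.70.

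Of 34 other FOXO target genes, 24 were measured, 5 of them were called higher and 0 lower, beside 5.81% and 2.76% of all genes, and their median was 0.13. By sign, 15 lay above 0 and 9 below, beside 56.0% of all genes above 0. The lowest was -0.91 for Bnip3, a mitophagy receptor gene named here after its value was seen. Tsc22d3 (GILZ), a leucine zipper protein also induced by glucocorticoids, had signals of 340.6, 260.3 and 1110.6, 3.26-fold higher in co-culture, although its 2 other measured probe sets had differences of 0.26 and 0.79. Bbc3 (PUMA), a BH3-only promoter of cell death that p53 also controls, had 277.1, 248.5 and 585.8, 2.11-fold higher. The others were Txnip, a brake on glucose uptake, Gadd45a, a growth arrest protein, and the factor Klf4, with differences of 4.11, 3.07 and 1.34. So the genes of this list called against regular medium lay on the side of Foxo3 and Irs2, and Ccng2 on the other side. In co-culture against conditioned medium 5 of the 24 were called higher, beside 5.83% of all genes. There Bnip3 was called lower at -1.03, 1 of 24 beside 2.6%. Fasl, Tnfsf10, Trim63, Pdk4, Pck1, G6pc, Igfbp1 and Selenop lay at or below the floor on all arrays.

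The next list held genes of cell cycle exit and the DREAM complex, which represses cell cycle genes in resting cells. None of its 19 measured genes was called in co-culture against regular medium, beside 8.57% of all genes, and their median was 0.00. Rbl2, Btg1 and Cdkn1b are counted both here and among the other FOXO target genes. Against conditioned medium 1 of the 19, Rb1, was called higher at 1.1, beside 5.83% of all genes. Against regular medium Rb1, the retinoblastoma gene, had a difference of 0.86 and the DREAM kinase gene Dyrk1a 0.62. Other probe sets of Dyrk1a were at -0.14 and 0.30. The pocket protein gene Rbl2 and E2f4 each had -0.58, and the other Rbl2 probe set had -0.05. Of 23 measured proliferation genes, 22 lay below 0, while 56.0% of all genes lay above it. Beside 2.76% of all genes, 5 of the 23 were called lower (Ccna2, Ccne2, Plk1, Ccnb2 and Aurkb), with differences from -1.52 to -1.26 and a list median of -0.84. Ccnd2, a D-type cyclin gene that FOXO factors are known to repress, was called higher at 1.08, and its 6 other measured probe sets ran from -0.22 to 1.05. Beside each of these lists, the markers of MSCs and fibroblasts had their median at 0.89 in the same comparison, and their part in the lists was not tested.

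**Figure D4:**
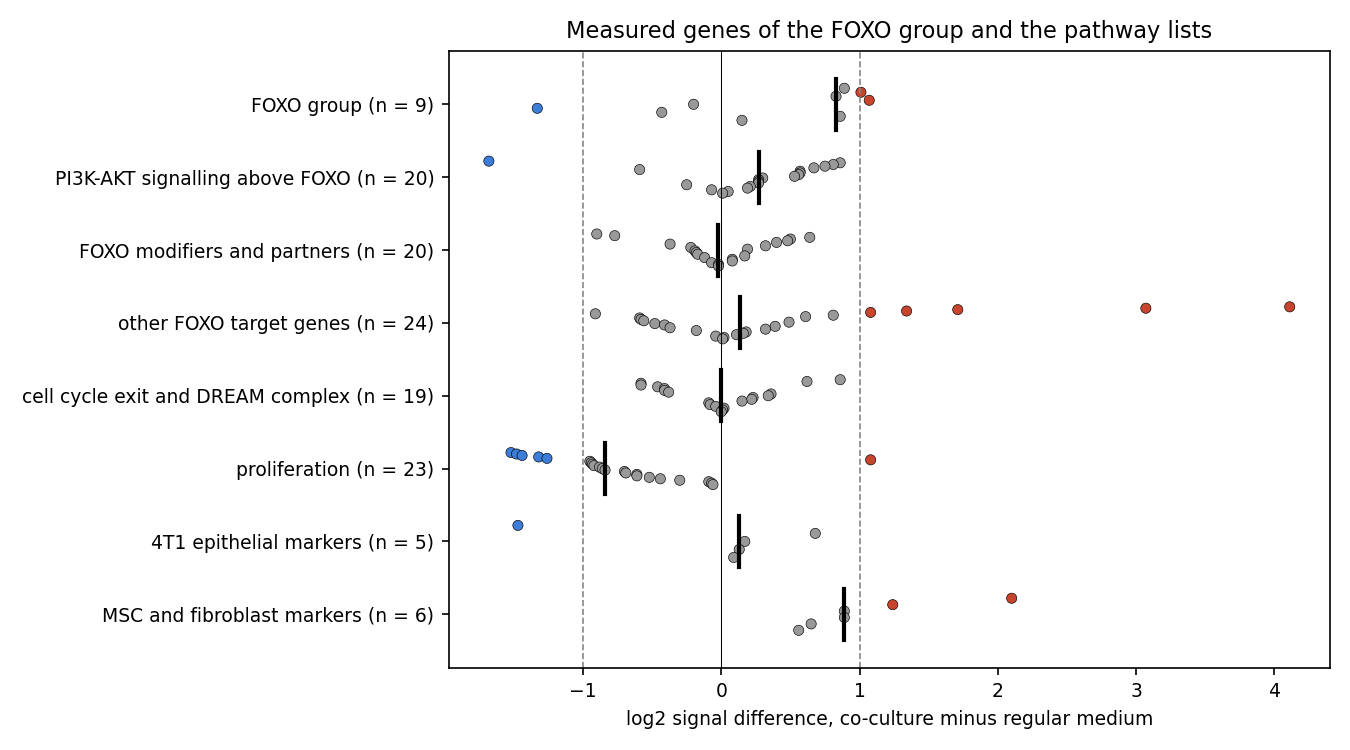
Log2 signal difference between co-culture and regular medium for each measured gene of the FOXO group, the pathway lists and the marker lists (1 point per gene, n in the labels); black bars are medians, red and blue points lie at least 2-fold higher or lower, and dashed lines mark 2-fold. The FOXO group median is 0.83, the proliferation median -0.84 and the MSC and fibroblast marker median 0.89.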

How the data were processed

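The values are MAS5 signals, deposited by the authors as linear intensity, 1 value per probe set and array, per the submitters' processing notes. MAS5 merges the probes of a set and scales each array; neither its version nor its scaling target is known here. The 2%-trimmed means were 497.8, 497.7 and 498.0 in regular medium, conditioned medium and co-culture, so no scaling was added. The number of arrays limits the precision.

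Probe sets with 1 gene symbol (34945 of 45037) were named through the platform annotation. For 34741 of them the gene ID was found in RefSeq, and the symbol given there was used, whether or not it differed. Signals under the pooled 40th percentile, 42.4, were set to that floor before log2. Promoters came from RefSeq (GRCm38.p6). The CACGTG search was added after the sequences were seen.

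The genes and lists were chosen with earlier results of these data known. Named genes were all 10 of the group and, per list, each gene called in co-culture against regular medium, otherwise up to 4 measured genes with the largest difference; Bnip3, Cdkn1b, the sestrin genes, Ccng1, Sgk1 and the marker genes given by level fall outside that rule. The calling steps were run on simulated data as a check of the code. The changed genes there were all bright, none was changed 2-fold, and the noise was smaller than the scatter between probe sets here. That run therefore says nothing about the reliability of calls near 2-fold. Alternatives covered scaling, floor, filter, probe set choice and fold. Python 3.11.15, NumPy 2.4.6 and pandas 2.3.3 were used.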

Additional observations from a re-analysis of the deposited data

How the results depend on the processing

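Every difference compares 2 arrays with no replicate, and the floor of 42.4 and the filter at 149.3 limit what can be said of Pik3ip1, Foxo4 and Klhl24. Of 270 differences of the 10 genes recomputed under other settings, 246 moved by less than the scatter between probe sets and 0 called ones changed sign. Part of that count was fixed in advance. Changes of the signal filter alter no difference, and averaging cannot move Irs1 or Irs2, which have a single probe set. The 270 also include Pik3ip1, which was not measured. The count of called genes of the FOXO group in co-culture stayed at 2 to 4 under every setting with a 2-fold rule, and Ccng2 was among them each time. It was 6 at 1.5-fold and 0 at 3-fold, against regular medium and against conditioned medium alike, and in conditioned medium it was 1 at 1.5-fold. Of all 9393 genes compared with regular medium, 805 were called at 2-fold, 2512 at 1.5-fold and 222 at 3-fold. Against conditioned medium it was 788, 2509 and 233 of 9350, and in conditioned medium 203 of 9152 at 1.5-fold. The count of 4 came with scaling to a common median, where 968 of all genes were called. Nothing is read from the counts of the group. Averaging all probe sets of a gene put Foxo3 at 0.66 and Bcl6 at 0.52. The Foxo3 mean includes a probe set below the floor on all arrays, whose difference is 0.0 by construction.

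Over all genes, co-culture against regular medium gave 805 calls, and 435 with the filter at the 80th percentile, 2512 at 1.5-fold and 222 at 3-fold. Against conditioned medium the 788 calls became 423, 2509 and 233. In conditioned against regular medium the 38 calls became 2, 203 and 17, and 3 with the floor at the 60th percentile, 259 with no filter and 22 with averaged probe sets.

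Scaling to a common median moved the conditioned-medium list medians to 0.23 (PI3K and AKT), 0.17 (modifiers), 0.12 (targets), 0.14 (cell cycle exit), 0.18 (proliferation), 0.21 (epithelial) and 0.33 (MSC markers). The last was 0.00 with no filter and -0.07 with averaged probe sets. In co-culture the MSC marker median was 0.45 with the floor at the 60th percentile, 0.05 with no filter and 0.51 with averaged probe sets. By construction, dropping the filter lets dimmer genes enter, the higher floor replaces dim signals, and averaging brings in the other probe sets of a gene. Other causes were not tested. No paired analysis was possible because each condition has 1 array.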

Other observations

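Several relatives of the FOXO group were looked at after their values were seen. Ccng1, which encodes the sister cyclin of cyclin G2, had signals of 1667.8 in regular medium, 2140.2 with conditioned medium and 1845.2 in co-culture, a log2 difference of 0.15 in co-culture, with its 2 other measured probe sets at -0.65 and -0.34. Ccng2 stood at -1.33 and -1.98 on the same arrays. Cdkn1b (p27), a CDK inhibitor and a standard FOXO target in quiescence, had 1287.7, 1404.2 and 1295.8, a difference of 0.01. The sestrin genes, stress-induced regulators of mTORC1, were uneven: Sesn1 had a difference of -0.59, Sesn2 0.81 and Sesn3 0.32. Other measured probe sets gave -0.78 to 0.37 for Sesn1, 1.23 for Sesn2 and 0.85 for Sesn3. Sgk1, an AKT-related kinase gene whose product also phosphorylates FOXO3, had signals of 2883.3, 3216.7 and 1909.2, a difference of -0.59. None of these passed the 2-fold rule with the probe set standing for the gene.

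In the promoters, the E-box CACGTG, which reads the same on both strands and was searched after the sequences were seen, was in 4 of the 9 windows (Irs1, Irs2, Cited2 and the first Bcl6 window) and in 7.15% of all promoters. The match itself holds a CG pair. Those windows held 28, 41, 29 and 31 CG pairs in that order, against a median of 7 over all promoters. All promoters are therefore an unlike background for this share, and nothing is read from it. In Irs2 it began 44 bases before the start, ahead of the FOXO core at 37. In Irs1 it began 115 bases before the start and overlapped the core at 111. Irs1 and Irs2 lay above regular medium in co-culture and Cited2 below it, so genes with this match did not share a direction.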
